A study of Homo sapiens with 4 samples.

Results

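FOS, IER3 and NFKBIA are rapidly induced genes of the AP-1 and NF-kB responses, and their expression was read in SW480 cells, an established line from a colon adenocarcinoma, after treatment with a bacterial postbiotic. The members were the probes whose name on the array is FOS, IER3 or NFKBIA. They make up 3 of the 1843 genes measured and 6 of the 3786 non-control spots of each array, 2 spots per gene. The control group (MRS, 2 samples) received 15% (v/v) of the bacterial growth medium MRS for 10 h, and the treated group (BM, 2 samples) received 15% of a postbiotic of Bacillus mojavensis, a bacterium that was itself grown in MRS. The cells of both groups were kept in DMEM F12 with 10% fetal bovine serum. The samples of each group were grown and harvested independently, per the series' design text. The samples were hybridised in pairs on 2-colour arrays, MRS always in Alexa Fluor 555 and BM always in Alexa Fluor 647. Dye and treatment therefore cannot be told apart. The treatment field of the labels lists MRS medium for all 4 samples, and the groups were taken from the sample titles.

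NF-kB transcription factors are held in the cytoplasm by IkB proteins until an upstream kinase marks these for destruction. NFKBIA encodes IkB-alpha, the best known of them, and is itself a target of NF-kB, so that its resynthesis shuts the response off. FOS encodes the c-Fos subunit of AP-1, which pairs with JUN proteins. Its transcript appears within minutes of a mitogenic or stress signal through the MAPK cascade and is quickly degraded. IER3 encodes a small stress-induced protein that takes part in cell survival and in ERK and NF-kB signalling. In the colon epithelium these genes respond to growth factors, cytokines and bacterial products. Samples taken at 10 h show a level well after the first hours of any such response.

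The promoters of FOS and NFKBIA are shown because both genes are classed by the signals their promoters read. Each is the stretch of 250 bases before the annotated start of the gene (RefSeq, build GRCh38.p14, read 5′ to 3′ on the strand of the gene). The FOS window is chr14:75278578-75278827 on the plus strand, and the NFKBIA window is chr14:35404750-35404999 on the minus strand. Capitals mark the motifs found.
FOS: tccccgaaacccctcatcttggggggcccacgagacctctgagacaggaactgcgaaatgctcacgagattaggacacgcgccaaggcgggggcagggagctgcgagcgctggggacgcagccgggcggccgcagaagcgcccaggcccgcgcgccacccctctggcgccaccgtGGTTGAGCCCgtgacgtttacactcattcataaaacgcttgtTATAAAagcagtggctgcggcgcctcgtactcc
NFKBIA: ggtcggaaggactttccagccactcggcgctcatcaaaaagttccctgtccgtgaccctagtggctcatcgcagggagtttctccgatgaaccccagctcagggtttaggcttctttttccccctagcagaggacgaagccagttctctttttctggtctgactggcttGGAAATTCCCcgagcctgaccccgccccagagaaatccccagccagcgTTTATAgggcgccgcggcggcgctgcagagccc
5 motifs were searched on both strands. These were the kappa-B pattern (GGG, then 5 bases of any kind, then CC), the AP-1 site TGANTCA, the cAMP response element TGACGTCA, the TATA box TATAAA and the CArG box. NFKBIA held 1 kappa-B match, GGAAATTCCC, at bases -81 to -72 from the start, and FOS held 1, GGTTGAGCCC, at bases -75 to -66, both with the pattern on the strand opposite to the gene. The pattern is loose, and 54.4% of 35116 promoter windows of this length held it. Each of the genes held 1 TATA box match at bases -33 to -28, on the gene's strand in FOS and on the opposite strand in NFKBIA, against 10.7% of all windows. Neither window held an exact match to the AP-1 site, the cAMP response element or the CArG box. Such matches were in 6.57%, 1.65% and 1.16% of all windows. The FOS window holds TGACGTTT, which is close to the cAMP response element but was not counted. Variant sites, and sites beyond the 250 bases, could not be found by this search.

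None of the 3 genes differed between BM and MRS beyond the error of the test. After correction of each array for intensity by loess, the mean log2 ratio of BM over MRS was 0.064 ± 0.039 (SD, n = 2 arrays) for FOS, 0.14 ± 0.14 for IER3 and -0.094 ± 0.023 for NFKBIA. These are 1.05-fold, 1.10-fold and 0.937-fold. The adjusted p from limma, with Benjamini-Hochberg adjustment over all genes, was 0.849 for FOS and 0.775 for both others. Limma called 0 of 1843 genes (0%) at an adjusted p under 0.05, and 121 (6.57%) had an unadjusted p under 0.05, of which none was a member. FOS and IER3 were higher in BM on both arrays, as were 24.6% of all genes, and NFKBIA was lower on both, as were 28.5% of all genes. Neither direction was rare among all genes.

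The 95% intervals of the mean ratios state what size of change the 2 arrays leave possible. For FOS the interval ran from 0.947-fold to 1.15-fold, for IER3 from 0.964-fold to 1.25-fold and for NFKBIA from 0.851-fold to 1.03-fold. They rest mostly on a spread pooled over all genes (3.46 prior degrees of freedom against 1 of the gene itself), they are not adjusted over genes, and they do not cover a dye effect. A p-value that misses the threshold does not show that the genes were equal in both groups.

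FOS had clearly readable spots. Its intensity above local background, averaged over the 2 spots, was 1783 in MRS replicate 1 and 1492 in BM replicate 1 on array 1, and 3670 in MRS replicate 2 and 3348 in BM replicate 2 on array 2. The BM sample was the lower of each pair, and both samples of array 2 lay above both samples of array 1, so the groups overlapped. Raw intensity, as the mean of 2 spots, was 20.3 to 78.7 times the local background. The BM channel of the whole array was dimmer too, with an array median of the uncorrected log2 ratio of -0.23 (array 1) and -0.19 (array 2). FOS itself stood at -0.24 and -0.13 before correction.

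Each correction moved FOS to near 0 or slightly above it. With the array median subtracted and no correction for intensity, FOS stood at -0.018 on array 1 and 0.062 on array 2. With loess it stood at 0.036 and 0.091. The 2 spots of an array differed by 0.016 and 0.0047 on the log2 scale after loess, less than the 0.055 by which the arrays differed. Duplicate spots of all probes differed by a median of 0.026 on array 1 and 0.034 on array 2. The sign of FOS on array 1 thus turned with the correction, and its mean stayed positive, from 0.022 with median centring to 0.065 with plain background subtraction.

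The level of FOS differed far more between the pairs of cultures than between the treatments. On the log2 scale, after loess and scaling of the arrays to each other, it was 10.80 in MRS replicate 1, 10.84 in BM replicate 1, 11.76 in MRS replicate 2 and 11.85 in BM replicate 2. The group means were 11.28 ± 0.68 (SD, n = 2) for MRS and 11.34 ± 0.72 for BM. BM was thus first in order by less than either SD. These SDs hold the gap between the arrays, which cancels in the within-array ratio, whose SD was 0.039. Both samples of array 2 were higher, by 1.98-fold on average. A gap of that size or less was seen in 85.0% of the 1843 genes, whose median gap was 0.39 on the log2 scale. The pair of cultures and the array cannot be told apart here.

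**Figure D1:**
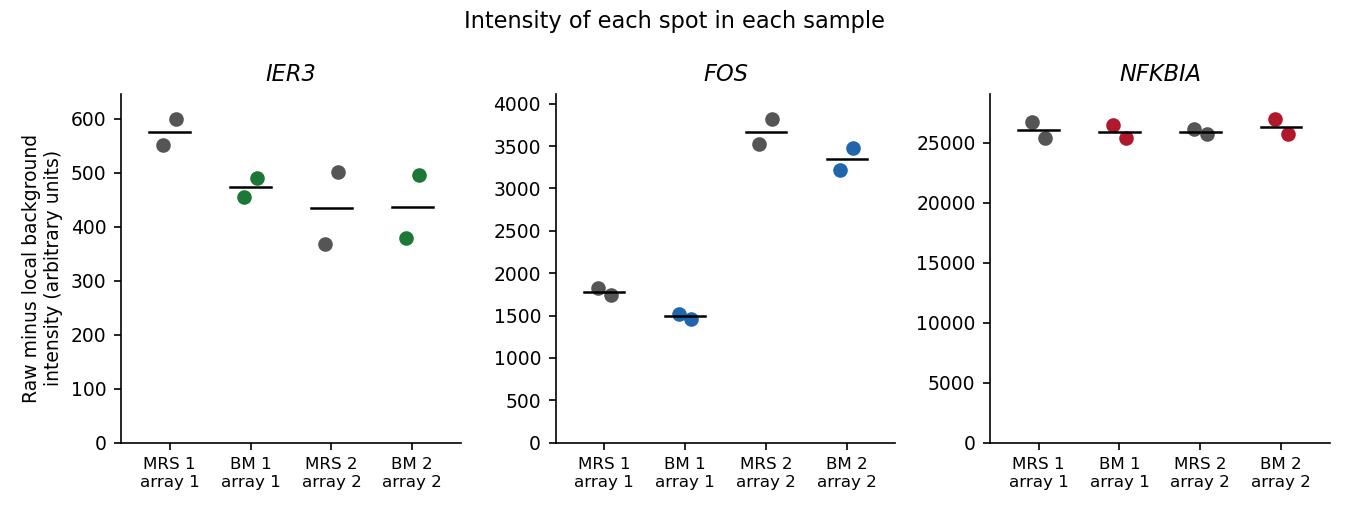
Spot intensity minus local background (arbitrary units, linear axis from 0) of IER3, FOS and NFKBIA in each sample; points are the 2 spots and bars their mean, MRS in grey and BM in colour. FOS differs between arrays (1783 and 1492 on array 1, 3670 and 3348 on array 2) more than between treatments, and NFKBIA is nearly level in all 4 samples.

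IER3 had the widest spread of the ratio between arrays among the 3 genes. Its intensity above background was 575 in MRS replicate 1, 473 in BM replicate 1, 435 in MRS replicate 2 and 437 in BM replicate 2. BM was lower than MRS on array 1 and level with it on array 2, and the groups overlapped. Raw intensity was 5.48 to 13.6 times the local background, so IER3 was above background in every sample. The probe's accession on the array was not in the RefSeq table used here, and it was matched to IER3 by its symbol.

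Almost all of the mean ratio of IER3 came from array 2. After loess the ratio was 0.033 on array 1 and 0.24 on array 2. The gap between the arrays was 0.20, at percentile 82.0 of all genes, whose median gap was 0.089. The 2 spots of each array were close to each other, at 0.039 and 0.028 on array 1 and 0.26 and 0.22 on array 2. On array 1 the ratio turned to -0.015 with median centring, -0.0090 with print-tip loess, which fits a curve within each print block, and -0.015 with the authors' net intensities. On array 2 the same 3 settings gave 0.20, 0.11 and 0.14. IER3 was thus higher in BM on both arrays in 7 of 10 settings that keep the arrays as pairs, and of opposite sign on the arrays in 3. The filter on dim probes and eBayes with a trend repeat the ratios of the main setting, so they add nothing to the 7.

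The levels of IER3 in the separate samples show the same order of array over treatment. On the log2 scale they were 9.40 in MRS replicate 1, 9.43 in BM replicate 1, 8.63 in MRS replicate 2 and 8.87 in BM replicate 2. The group means, 9.01 ± 0.54 (SD, n = 2) for MRS and 9.15 ± 0.40 for BM, differed by less than either SD. The gap between the arrays enters these SDs and cancels in the within-array ratio, whose SD was 0.14. Both samples of array 1 were higher than both of array 2, by 1.59-fold on average, the reverse of FOS. A gap of that size or less was seen in 71.4% of the 1843 genes.

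NFKBIA gave strong and even spots in all 4 samples. Its intensity above background was 26056 in MRS replicate 1, 25946 in BM replicate 1, 25946 in MRS replicate 2 and 26352 in BM replicate 2, from 248 to 452 times the local background in raw intensity. BM was slightly lower on array 1 and slightly higher on array 2. The 2 groups overlapped. Its uncorrected log2 ratios, -0.0057 and 0.022, were close to 0.

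The direction given for NFKBIA depended on whether intensity was corrected for. With the array medians of -0.23 and -0.19 subtracted and nothing else, NFKBIA stood at 0.22 on array 1 and 0.21 on array 2, higher in BM on both, as were 30.0% of all genes (30.1% were lower on both). With loess it stood at -0.11 and -0.078, lower on both. All 4 spots moved together, from between 0.19 and 0.23 to between -0.12 and -0.060. The mean with median centring was 0.22 with a 95% interval from 0.071 to 0.36, an unadjusted p of 0.0110 and an adjusted p of 0.171 in limma, so it did not pass. Median centring called 34 genes (1.84%), of which 33 were among the 185 brightest.

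**Figure D2:**
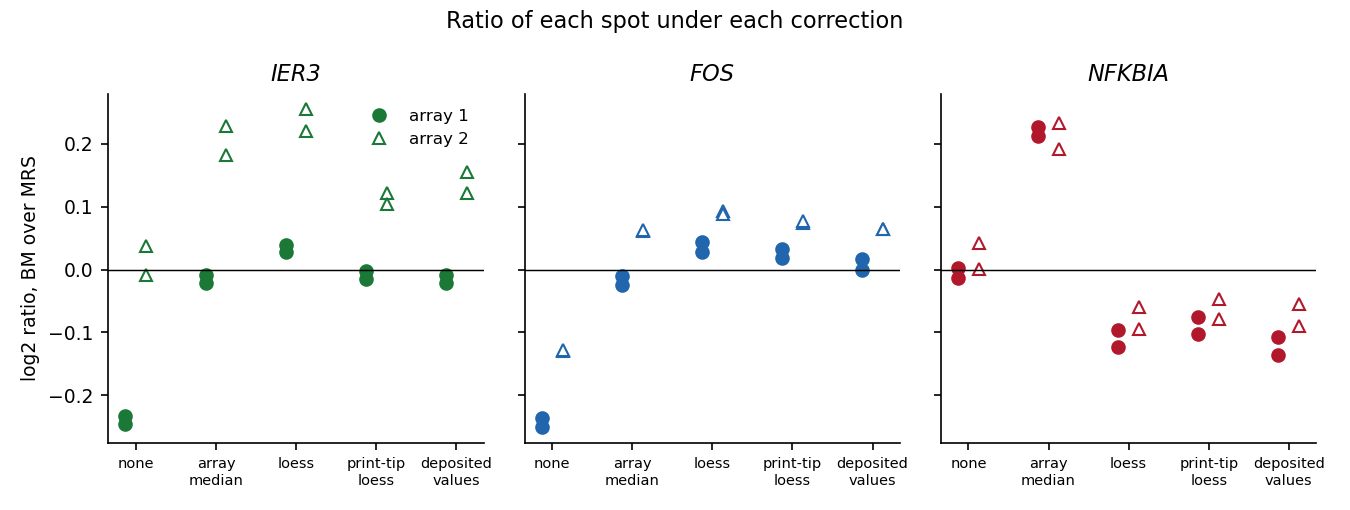
Log2 ratio of BM over MRS (vertical axis) of every spot of IER3, FOS and NFKBIA under each correction (horizontal axis), with filled circles for array 1 and open triangles for array 2. NFKBIA lies near 0 without correction, near 0.22 after centring on the array median and below 0 after loess, while FOS and IER3 move up from below or near 0.

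The size of the correction followed the place of each gene's spots on the intensity scale. Relative to median centring, loess lowered NFKBIA by 0.33 on array 1 and by 0.29 on array 2. It raised FOS by 0.054 and 0.029, and IER3 by 0.048 and 0.033. NFKBIA stood at intensity percentiles 97.4 and 96.6 on arrays 1 and 2, FOS at 47.8 and 66.4, and IER3 at 27.2 and 18.9. These are positions on the intensity scale and do not rank the transcripts of different genes. In the 185 brightest genes the median ratio with median centring was 0.25 on array 1 and 0.23 on array 2, and 166 of them were higher in BM on both arrays. After loess their medians were -0.0062 and -0.010. Loess and median centring gave the mean ratio opposite signs in 403 of 1843 genes, 88 of them among the 185 brightest.

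A comparison with genes of like brightness places NFKBIA without a fitted curve. It was chosen after the data were seen. On array 1 the 50 genes nearest to NFKBIA in intensity had a median-centred ratio of 0.32 at their median (quartiles 0.24 and 0.42), and 43 of the 50 lay above NFKBIA at 0.22. On array 2 their median was 0.25 (quartiles 0.18 and 0.31), and 31 of the 50 lay above it. All 50 and 49 of the 50 were positive. Set against these genes, NFKBIA stood at -0.10 on array 1 and -0.040 on array 2, with a mean of -0.071 (limma, adjusted p = 0.822). NFKBIA was positive with median centring and yet lower than most genes as bright as itself.

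The same comparison kept FOS and IER3 above 0 on both arrays, with IER3 on array 1 much nearer to 0 than the 0.033 of loess. FOS stood 0.034 above the median of its 50 neighbours on array 1 and 0.071 above it on array 2, with 13 of 50 neighbours higher on each. IER3 stood 0.0046 above the median on array 1, with 23 of 50 higher, and 0.25 above it on array 2, with 1 of 50 higher. On array 2 IER3 was thus near the top of the genes of its brightness, and on array 1 in their middle.

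**Figure D3:**
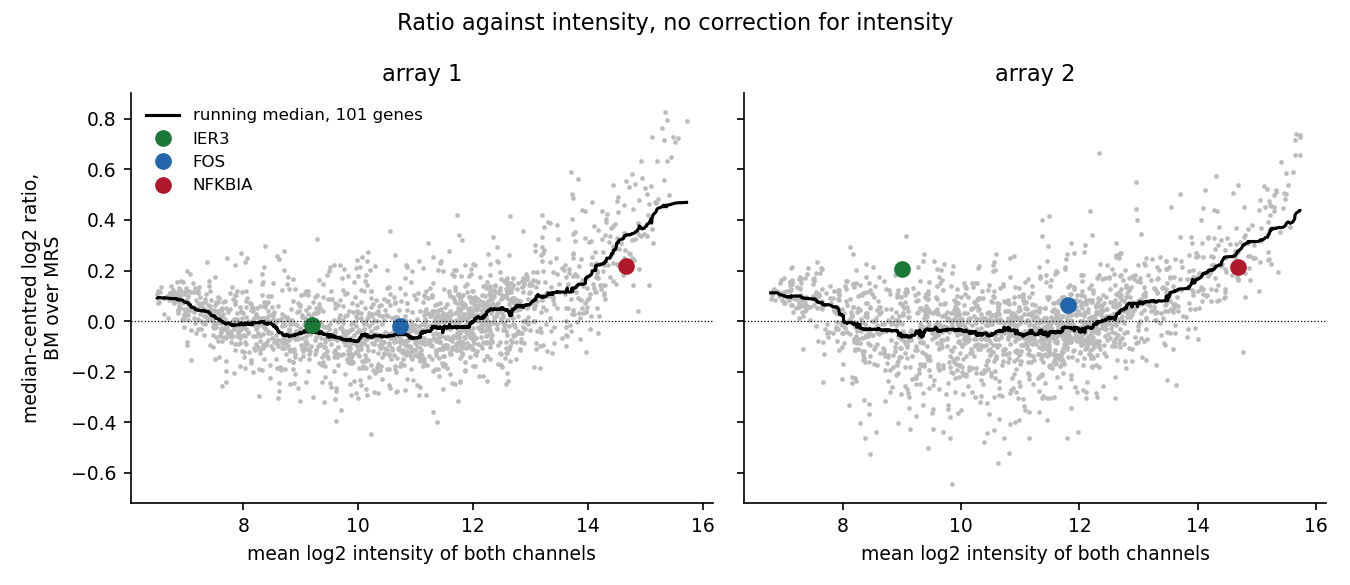
Median-centred log2 ratio of BM over MRS (vertical axis) against mean log2 intensity (horizontal axis) for 1843 genes on each array, in grey, with the running median as a line and IER3, FOS and NFKBIA as coloured points. The line climbs among bright genes on both arrays, and NFKBIA lies above 0 (0.22 and 0.21) but below the line.

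The authors' own values carry a scaling of the BM channel that raised FOS and IER3 and lowered NFKBIA. Whether it follows intensity was not tested. Their net intensity equals raw minus background in MRS. In BM it was 20.1% above raw minus background on array 1 and 14.6% above it on array 2 at the FOS spots. At the IER3 spots it was 20.3% and 9.18% above it, and at the NFKBIA spots the difference was -7.73% and -6.32%. With these values the mean log2 ratio was 0.036 for FOS, 0.062 for IER3 and -0.097 for NFKBIA. In the authors' deposited table the 2 FOS spots had z ratios of 0.45 and 0.53, the IER3 spots 0.66 and 0.52 and the NFKBIA spots -0.91 and -0.93. The fold changes of the authors' deposited table were 1.03 and 1.04 for FOS, 1.04 and 1.03 for IER3 and 0.937 and 0.935 for NFKBIA. None of the 6 spots reached a z ratio of 2 in absolute size, which 4.83% of the spots in the authors' deposited table did.

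**Figure D4:**
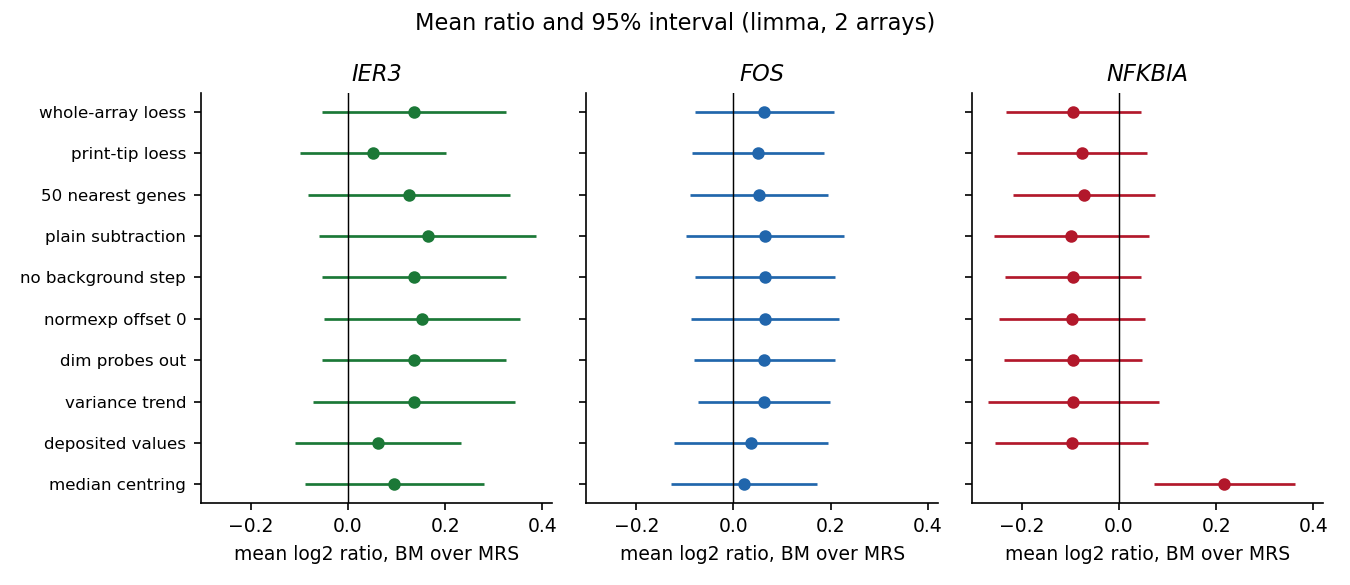
Mean log2 ratio of BM over MRS with its 95% interval (horizontal axis; limma, 2 arrays) for IER3, FOS and NFKBIA under 10 settings (vertical axis). Every interval of IER3 and FOS includes 0, and for NFKBIA the interval excludes 0 with median centring (0.071 to 0.36) and includes it in the other settings.

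The genes around FOS, IER3 and NFKBIA in their pathways gave small ratios as well. Of 65 further genes measured from the pathway lists, 13 stood above 0 on both arrays (20.0%, against 24.6% of all genes) and 23 below it (35.4%, against 28.5%). Limma called 0 of them, and 2 (CD80 and NR4A3) had an unadjusted p under 0.05, which is 3.08% against 6.57% of all genes. Nothing is read from these shares about the pathways. Among the 15 transcription factors of the immediate early response, FOS included, 3 had positive ratios on both arrays and 3 negative ones, at a median mean ratio of 0.012, against -0.0057 over all genes. NR4A3, an orphan nuclear receptor, stood at -0.24 ± 0.098 (SD, n = 2 here and below), with an unadjusted p of 0.0142 and an adjusted p of 0.585 in limma. Its relative NR4A1 stood at -0.096 ± 0.097. The partners of c-Fos gave 0.022 (JUN), 0.046 (JUNB) and 0.058 (JUND), and none passed. JUN lay near the local background, at 1.52 to 2.42 times it in raw intensity, and turned to -0.057 with the authors' net intensities.

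Of 9 other immediate early and MAPK feedback genes, IER3 included, 1 was higher on both arrays and 2 were lower, with a median of -0.011. CCN1, a secreted matrix protein induced by serum, stood at -0.11 ± 0.14, and GADD45A, a stress sensor, at -0.031 ± 0.012. Of 15 genes of the MAPK cascade that leads to FOS, 4 were higher and 5 lower, with a median of 0.0021. The receptor gene EGFR stood at -0.14 ± 0.068, the kinase gene BRAF at -0.12 ± 0.0030 and the GTPase gene NRAS at -0.077 ± 0.040. The smallest adjusted p of these 3 was 0.771 in limma.

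Among the NF-kB genes, the 4 measured IkB proteins and feedback inhibitors held 2 that were lower on both arrays, NFKBIA and BCL3, and 1 that was higher, IER3. BCL3, a nuclear IkB protein, stood at -0.092 ± 0.038, nearly the value of NFKBIA, and kept its sign in every setting of the intensity and background steps (-0.11 to -0.053). TNFAIP3, the deubiquitinase A20 and another NF-kB-induced brake, had opposite signs on the arrays with a mean of -0.0023. Of the 4 subunit genes, RELB stood at 0.100 ± 0.070, NFKB1 at 0.010 ± 0.00083 and NFKB2 at -0.040 ± 0.010. RELB was also among the 185 brightest genes and moved to 0.50 with median centring and to -0.026 with print-tip loess. It was below 0 with the authors' net intensities too. NFKB1 turned to -0.039 with median centring.

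Of 7 upstream receptors, adaptors and kinases, 6 were lower in BM on both arrays, where 28.5% of all genes were, and 1 was higher, with a median of -0.043. The tally was 6 lower and 0 higher with median centring and 5 lower and 0 higher with print-tip loess. It was 4 lower and 1 higher with the authors' net intensities. The receptor genes CD14, TNFRSF1A and CD40 stood at -0.14 ± 0.069, -0.092 ± 0.038 and -0.042 ± 0.010, and CD40 turned to 0.0049 with the authors' net intensities. None of the 7 passed, and the ratios of the other 4 ran from -0.054 (MAP3K7) to 0.0068 (IKBKG). IKBKG turned with median centring (-0.036), print-tip loess (-0.0031), the authors' net intensities and the comparison with genes of like brightness. Of 15 NF-kB target genes, 4 were higher and 5 lower, with a median of -0.016. CD80, a costimulatory ligand, stood at 0.34 ± 0.051 (adjusted p = 0.560, limma), CFLAR, an inhibitor of caspase-8, at 0.11 ± 0.017 and the cytokine gene IL1B at -0.11 ± 0.022. IL1B turned to 0.13 with median centring, as NFKBIA did.

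Median centring placed the other bright genes of the pathways above 0, as it did NFKBIA and most of the brightest genes. Of the pathway genes, 6 were among the 185 brightest: NFKBIA, FOSB, IL1B, MAP2K3, MCL1 and RELB. With median centring all 6 were higher in BM on both arrays, with mean ratios from 0.13 to 0.50. So were 166 of the 185. Limma called RELB and MAP2K3 in that setting, among 33 called of the 185. After loess only RELB of the 6 was above 0 on each array, IL1B and NFKBIA were below 0 on each, and the other 3 had 1 array on either side. Of the 185 brightest genes, 49 were then above 0 on each array and 59 below it.

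**Figure D5:**
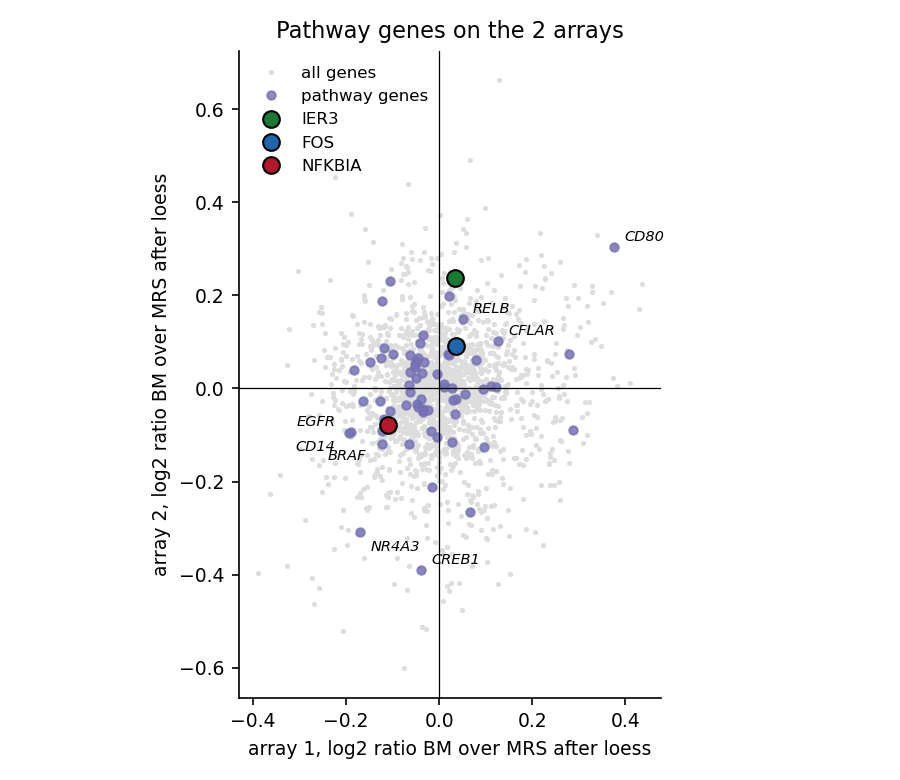
Log2 ratio of BM over MRS after loess on array 1 (horizontal axis) and array 2 (vertical axis) for all 1843 genes in grey, pathway genes in purple and FOS, IER3 and NFKBIA in colour. FOS (0.036 and 0.091) and IER3 (0.033 and 0.24) lie in the upper right and NFKBIA (-0.11 and -0.078) in the lower left, all within the cloud of all genes.

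By the distance between their pairs of ratios on the 2 arrays, MANF and RAB29 were among the genes most like FOS, at 0.0051 and 0.0056. Those most like IER3 were NR0B1, ZNF711 and AKT2, at 0.020, 0.024 and 0.024, and those most like NFKBIA were MMP10, SIRT4 and LRRFIP1, at 0.0040, 0.0045 and 0.0092. Within a distance of 0.05 lay 112 genes for FOS, 12 for IER3 and 103 for NFKBIA. A likeness over 2 ratios is shared by many genes.

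All 9 measured colon epithelium markers lay above local background in every sample, with raw intensities from 4.11 to 9.94 times it (TFF3) to 111 to 276 times it (EPCAM). CDH17, LGALS4 and MUC2 were also low, at 4.40 to 17.0 times. All 6 measured fibroblast markers lay above it too, from 2.45 to 8.13 times (THY1) to 474 to 783 times (COL3A1). Of the genes listed as leukocyte markers, CD14, CD3D, LYZ, MS4A1 and PTPRC also lay above it in every sample, from 5.84 to 125.8 times. CD14 is also on the list of upstream receptors. Of all 1843 genes, 1832 were counted as above local background. Lying above it therefore does not set the markers of any of these lists apart from other genes, and cell identity was not tested. The B cell gene MS4A1, which a colon line should lack, was at 53.7 to 125.8 times. The fibroblast marker COL3A1 stood at intensity percentiles 99.1 and 99.3 on arrays 1 and 2, against 91.0 and 90.0 for EPCAM. How far signal like that of the leukocyte and fibroblast markers enters the FOS, IER3 and NFKBIA values was not tested. The median raw intensity over spots was 1655 to 2186 in the 4 samples.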

How the data were processed

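Expression in 4 samples was measured on 2 two-colour oligonucleotide arrays. Per the file headers, the authors deposited raw, local background and net intensities for each spot and channel, and their series matrix holds these net intensities in rounded form. No source used here names the image software or the step that scales the BM net intensities. R 4.2.2 is listed in the submitters' processing notes with no role. The authors' deposited table holds a z ratio, which is a score per spot, and a fold change on a log scale of base 1.2 in place of log2, per the file headers, which was turned into a plain fold here.

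Here the raw intensities were corrected with normexp (offset 50), then by loess on each array (limma 3.58.1, R 4.3.3). The 54 control spots had weight 0 and were dropped. Duplicate spots were averaged, and where a gene had several probes the brightest was used. Names came from RefSeq (GRCh38.p14) for 1701 of 1856 probes by accession, for 60 by symbol and for 15 by synonym. Another 5 kept the name in the file, and 75 had none. Limma tested the mean log2 ratio against 0 with eBayes, two-sided, and p-values were adjusted by Benjamini-Hochberg over all 1843 genes with a threshold of 0.05. The steps were tested on simulated data. Because each ratio is taken within an array, array and replicate number act as a block. Both channels share the spots of an array, so these intensities cannot test whether the cultures were paired. P-values measure the spread between 2 pairs, moderated by eBayes toward a spread pooled over all genes, which carries most of the weight.

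The members, gene lists, motifs and naming rule were chosen with earlier results of these data known. The rule named the members, up to 3 genes per list with 1 sign on both arrays and at least 1.5 times the local background, taken by the smaller of their absolute ratios, and the 3 genes nearest to each member over the ratios of both arrays. JUN, JUNB, JUND, TNFAIP3, MAP3K7, IKBKG, FOSB, MAP2K3, MCL1 and the cell type markers not chosen by the rule were named after their values were seen. Some values that the rule or the marker lists would give are not reported here. Alternatives were other background and intensity corrections, a filter on dim probes, eBayes with a trend, separate channels and left-out samples.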

Additional observations from a re-analysis of the deposited data

How the results depend on the processing

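The signs of FOS and IER3 held in 10 of 10 alternatives that keep every sample, the fit without the array as a block included. NFKBIA turned in 1 of them, median centring, to 0.22. The filter on dim probes, eBayes with a trend and the fit without the block leave the mean ratio of a member as it is. In these alternatives the sign could not turn. Alternatives that change only the background step keep the loess, and print-tip loess and the 50 nearest genes also follow intensity. They are therefore not separate checks on the sign of a member. Median centring by construction leaves the trend of the ratio with intensity in place. Whether that trend comes from the dyes or from the treatment cannot be told apart here. The smallest adjusted p of a member over its alternatives was 0.79 for FOS, 0.62 for IER3 and 0.17 for NFKBIA (limma). Limma called 0 genes in each alternative except median centring, which called 34. Without the replicate block, with 4 separate channel values, the mean ratios were the same (0.064, 0.14 and -0.094), because the design is balanced, and the adjusted p was 1.00 for each. Leaving out 1 sample without the block gave -0.44 to 0.57 for FOS, -0.25 to 0.52 for IER3 and -0.21 to 0.020 for NFKBIA, with 0 genes called. FOS turned without MRS replicate 1 (-0.42) and without BM replicate 2 (-0.44), IER3 without MRS replicate 2 (-0.25) and without BM replicate 1 (-0.15), and NFKBIA without MRS replicate 1 (0.020) and without BM replicate 2 (0.0037). In these fits the lone sample is assumed to vary like the other group, and the gap between arrays enters the ratio by construction. With 1 whole array left out, no member changed sign (FOS 0.036 and 0.091, IER3 0.033 and 0.24, NFKBIA -0.11 and -0.078). Of 68 pathway genes, 15 were higher and 24 lower on both arrays with loess, 16 and 26 with median centring, 10 and 22 with print-tip loess, and 14 and 21 with the authors' net intensities. The last setting and the comparison with the 50 genes nearest in intensity were added after seeing the data. Every value is limited by the number of arrays, 2, and by the lack of a dye swap.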
